A study of Mus musculus with 8 samples.

Results

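The injured mouse kidney 14 days after ischemia-reperfusion injury (IRI) was compared with the uninjured kidney in sorted single-cell suspensions, cell class by cell class. Cells were chosen by their condition in the authors' cell annotation, vehicle day 14 or untouched control, and kept if they had more than 300 detected genes, fewer than 20000 counts and less than 25% of counts from mitochondrially encoded genes. This left 28466 of the 90855 cells that passed the same limits over all conditions: 17261 at day 14 and 11205 in control.

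Injured mice were male C57BL/6 animals whose left renal pedicle was clamped for 30 min while the right kidney was left in place. They received vehicle (DMSO) by intraperitoneal injection 30 min before ischemia. The study describes further treatment up to day 14, and its methods name only the drug for the repeat injections. The age of the mice is not given in the sources used here. Control kidneys came from mice with untouched, not sham-operated, kidneys. The study states that its single-cell work used male mice and that its colonies were C57BL/6. It names no vehicle injection for these controls. Surgery, and vehicle if controls had none, cannot be told apart from injury in this comparison. Kidneys of 3 mice per condition were pooled, so each condition is 1 pool, there is no biological replicate, and no test of the difference was possible. The 8 sublibraries are portions of the same barcoded cells. Their spread, given below as a range or SD, is technical, and all intervals are 95% intervals that cover counting error only. Suspensions were depleted of dead cells with SYTOX Blue and enriched for leukocytes by forward and side scatter, so shares of cells describe the sorted suspension and not the kidney.

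After ischemia, proximal tubule cells die or lose their differentiated programme, neutrophils and monocytes enter within hours, and macrophages of resident and monocyte origin take part in clearance and repair. When repair is incomplete, leukocytes and injured tubules persist and matrix accumulates, and acute injury passes into chronic disease. Nuclear factor (NF)-κB, a family of transcription factors that drives inflammatory genes and its own inhibitors, and the NLRP3 inflammasome, which matures interleukin 1β, act in the leukocytes of this setting.

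Control cells gave 40077221 counts and a median of 2928 counts and 1351 genes per cell. Day 14 cells gave 51399604 counts and a median of 2391 counts and 1129 genes. The conditions differed in how many barcodes the limits removed. Of 20279 control barcodes 55.3% were kept and 8780 were past the mitochondrial limit, against 94.1% of 18353 barcodes and 716 at day 14. Among barcodes that only the mitochondrial limit removed, 46.0% of 2255 in control and 28.7% of 279 at day 14 were proximal tubule-like. The conditions were barcoded in separate first-round wells and shared no cell barcode name. Across sublibraries 13712 barcode names recurred, and the sublibrary was kept as part of each cell's identity.

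Cells were assigned to classes by counting how many of 8 marker genes of each of 19 classes had a count, and are called by the class with "-like" added. Every class described gene by gene below had 3 to 5 of its own markers and none of another class among its 10 leading genes. Loop of Henle-like cells had 2, and cells gated as stroma or pericyte none, their leading genes being *Col1a2*, *Col1a1* and *Col3a1*, and only shares are given for these. Cells enter a class by these same markers, so such counts follow in part from the gate and are no independent check of identity. The neutrophil-like share differed most among leukocytes. It was 0.562% of control cells (0.432 to 0.719; 63 cells) and 8.04% at day 14 (7.64 to 8.46; 1388 cells), a 14.3-fold difference (log2 ratio 3.84). With cells thinned to 1000 counts, against a median of 1266 and 953 counts in this class, the log2 ratio was 3.17. Sublibraries spanned 0.143% to 0.891% in control and 7.36% to 8.62% at day 14, without overlap. Values at days 1 and 7 in vehicle-treated mice were 35.3% and 24.0%, so the day 14 share lay below both and above control.

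Macrophage-like cells, the most abundant class, made up 34.0% of control cells (33.2 to 34.9; sublibraries 32.8% to 36.1%) and 44.5% at day 14 (43.8 to 45.3; sublibraries 43.1% to 46.8%). The share of type 2 conventional dendritic cell (cDC2)-like cells, which present antigen to CD4+ T cells, was 4.82% (4.43 to 5.23) in control and 9.32% (8.89 to 9.77) at day 14, a 1.93-fold difference. T cell-like cells made up 5.58% (5.16 to 6.02) and 7.25% (6.87 to 7.65). Dendritic cells with *Ccr7*, the receptor for migration to lymph nodes, were few, with 38 cells (0.339%) in control and 123 (0.713%) at day 14. The shares of cDC1-like cells, which cross-present antigen, were 4.11% and 4.50%, with a log2 ratio of 0.13 (-0.03 to 0.29) and only 5 of 8 sublibraries in that direction. Classical monocyte-like cells, the inflammatory blood monocytes, numbered 99 of 11205 and 190 of 17261, with a log2 ratio of 0.32 (-0.03 to 0.67), and 0.96 with cells thinned to 1000 counts, after 13.5% at day 1 and 4.53% at day 7.

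NK cell-like cells, cytotoxic innate lymphocytes, made up 0.821% of control and 1.12% of day 14 cells (log2 ratio 0.45, 0.09 to 0.80). The remaining leukocyte classes with at least 50 cells in each condition had lower shares at day 14. Nonclassical monocyte-like cells, which patrol vessels, made up 1.29% of control and 0.718% of day 14 cells (log2 ratio -0.85, -1.19 to -0.50). B cell-like cells made up 3.96% and 2.57% (log2 ratio -0.62, -0.81 to -0.44). Plasmacytoid dendritic cell (pDC)-like cells, which make type I interferon, made up 1.32% and 0.875% (log2 ratio -0.59, -0.92 to -0.27). Group 2 innate lymphoid cell-like cells numbered 57 and 52.

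Endothelial and most tubule classes were a much smaller part of the day 14 suspension. Endothelial cell-like cells made up 20.6% of control (19.9 to 21.4) and 2.28% of day 14 cells (2.06 to 2.51), a 9.06-fold lower share. Proximal tubule-like cells made up 9.60% (9.06 to 10.2) and 0.742% (0.619 to 0.881), 12.9-fold lower. Loop of Henle-like and distal tubule-like shares had log2 ratios of -2.42 and -1.83. The distal tubule-like ratio was -2.34 with cells thinned to 1000 counts and -2.50 without a mitochondrial limit. Intercalated cell-like cells (24 and 25) and cells gated as stroma or pericyte (19 and 38; 0.170% and 0.220%) were few, with intervals of the log2 ratio (-1.37 to 0.24 and -0.42 to 1.17) that include 0. All leukocyte classes together were 58.3% of control (57.4 to 59.2) and 81.1% of day 14 cells (80.5 to 81.6). Shares are relative to one another. Taken over leukocyte classes alone, the log2 ratio of the macrophage-like share was -0.088, of the T cell-like share -0.096 and of the NK cell-like share -0.030, so their direction turned. The ratios of classical monocyte-like (-0.16) and cDC1-like cells (-0.35), whose intervals above include 0, also turned, while those of neutrophil-like (3.36) and cDC2-like cells (0.48) did not.

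**Figure D1:**
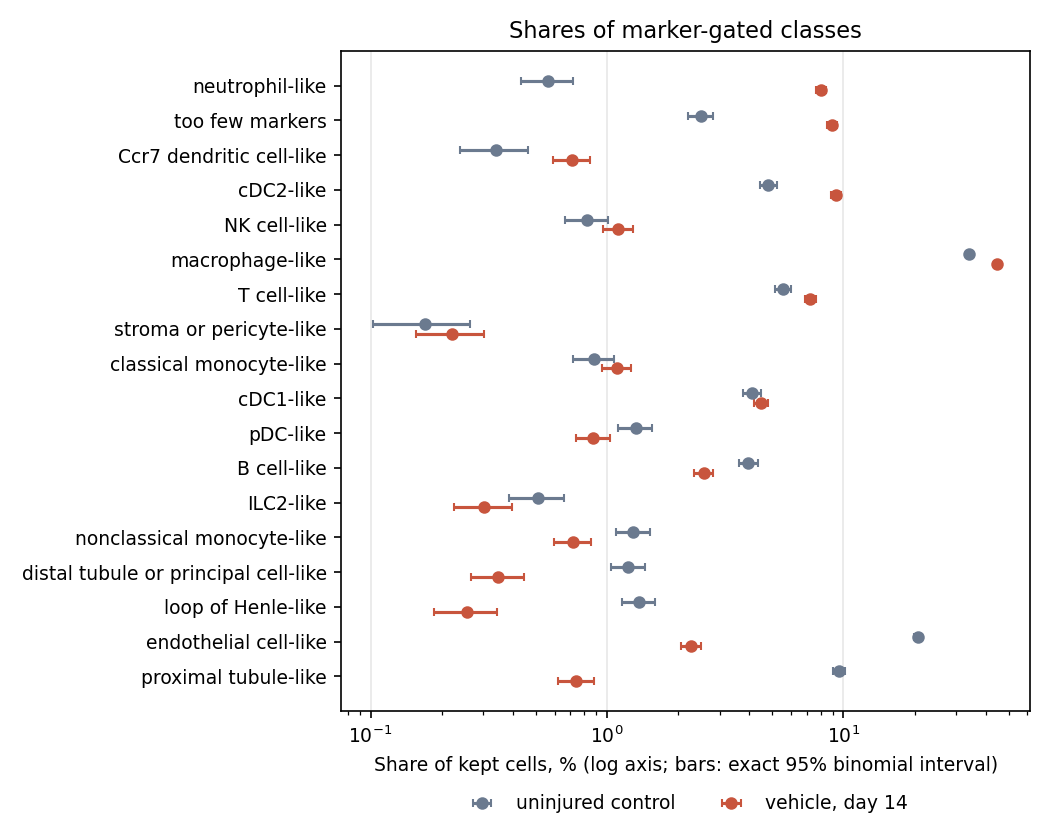
Share of kept cells (%, log axis) in each marker-gated class in uninjured control and at day 14 after IRI with vehicle, 1 pool each, with exact 95% binomial intervals, ordered by the ratio of shares. Neutrophil-like cells were 14.3-fold higher (log2 ratio 3.84, or 3.17 with thinned cells) and proximal tubule-like cells 12.9-fold lower at day 14.

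A further 2.49% of control and 8.94% of day 14 cells had too few markers for any class, with a median of 1575 and 877 counts, and 5.99% and 6.02% were tied between classes. These cells belong to no class, and the values of those with too few markers stand among the closing observations.

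Over the whole suspension, levels were expressed as counts per 1000000 counts of the cells summed (CPM). A gene was tested if its mean over both conditions was at least 50 CPM with at least 50 counts. Its log2 ratio was taken relative to the median of all tested genes, which is therefore 0, and it was called if this relative log2 ratio was past 1 in either direction and all 8 sublibraries shared its sign. A gene low in 1 condition passes only through the other, so counts and medians over the measured members of a list are descriptions that the limit partly fixes. Of 3545 tested genes, 145 (4.09%) were called higher and 249 (7.02%) lower at day 14. In such sums, fewer cells of a type and less RNA per cell cannot be told apart.

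The largest difference upward was in *Fn1*, which encodes the matrix glycoprotein fibronectin (chr1:71585520-71653200, minus strand, GRCm38). Its level was 23.7 CPM in control (sublibraries 20.2 to 28.0) and 237 CPM at day 14 (200 to 287), a relative log2 ratio of 3.34 ± 0.29 (SD of 8 sublibraries). *Ptgs2*, the inducible cyclooxygenase, was at 38.8 and 293 CPM and *Cxcl2*, a neutrophil chemoattractant, at 27.2 and 161 CPM. The feedback inhibitor of cytokine signalling *Socs3* had a relative log2 ratio of 2.83. *Clec4e*, a C-type lectin receptor that signals through SYK, had 2.72, and the cystine transporter subunit *Slc7a11* 2.68. *Gadd45b* (2.66), *Thbs1* (2.65), *Acod1* (2.57), encoding the itaconate-making enzyme of activated myeloid cells, and *Nr4a3* (2.53) completed the 10 largest differences. At day 14 all but *Fn1* and *Nr4a3* of these 10 were highest in neutrophil-like cells, with *Acod1* at 1699 CPM there and 37.8 CPM in macrophage-like cells. Here and below, the class with the highest level was sought among 10 classes. These were the classes with at least 100 cells in both conditions and neutrophil-like cells, so classical monocyte-like cells were left out.

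Among the genes with the lowest ratios at day 14 were tubule genes and genes highest in endothelial cell-like cells. *Egf*, the growth factor of the distal nephron (chr3:129677565-129755316, minus strand), was at 257 CPM in control (182 to 329) and 12.9 CPM at day 14 (9.43 to 18.4), a relative log2 ratio of -4.31 ± 0.48. The proximal tubule genes *Pck1* (-4.27), encoding an enzyme of gluconeogenesis, *Keg1* (-4.11) and *Kap* (-3.69) followed. *Ltbp1* (-4.14), *Tll1* (-3.80), *Chrm3* (-3.71), *Plpp3* (-3.70) and *Ptpru* (-3.67) had their highest level in endothelial cell-like cells. The shares of the proximal tubule- and endothelial cell-like classes fell with these genes, as given above. All 5 measured members of the tubule homeostasis list were called lower, as were 5 of 9 measured endothelial state genes, with 1 called higher. Among inflammatory lists, 9 of 12 measured NF-κB genes (median 1.23) and 5 of 7 inflammasome and interleukin 1 genes (median 1.23) were called higher and none lower. With these, neutrophil markers in the whole suspension went from 98.2 CPM (83.5 to 122) to 394 CPM (350 to 434), and their part in the result was not tested.

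The comparison was next made within macrophage-like cells, 3814 in control with 13199561 counts and 7684 at day 14 with 25283288 counts. Of 3285 tested genes, 113 (3.44%) were called higher and 58 (1.77%) lower. *Fn1* again differed most, at 9.09 CPM in control (4.96 to 18.4) and 307 CPM at day 14 (252 to 390), a relative log2 ratio of 5.16 ± 0.56 and a CPM ratio of 33.7 (28.2 to 40.7). At day 14 its level was highest in macrophage-like cells among the 10 classes compared, whereas in control it was highest in nonclassical monocyte-like cells, at 58.1 CPM. Classical monocyte-like cells, 99 in control, were not among the 10, so their *Fn1* level was not compared. *Fn1* levels in macrophage-like cells at days 1 and 7 were 979 and 890 CPM, so that day 14 lay below both. When every cell was thinned to 1000 counts, 0.876% of control and 8.66% of day 14 macrophage-like cells had an *Fn1* count (2.67% and 14.2% before thinning). In T cell-like cells, where little *Fn1* would be looked for, the thinned shares were 0.491% and 1.97%.

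*Nr4a3*, an orphan nuclear receptor of the immediate early response (chr4:48045153-48086447), was at 35.7 CPM (25.0 to 54.4) and 316 CPM (249 to 345), a relative log2 ratio of 3.23 ± 0.34. Unlike *Fn1*, it was lower at days 1 and 7, at 113 and 140 CPM, than at day 14. *Cd38*, an NAD-consuming ectoenzyme, was at 12.1 (7.73 to 19.1) and 107 CPM (91.9 to 119), after 70.0 and 89.5 CPM at days 1 and 7. *Fcrls*, an Fc receptor-like scavenger protein of tissue macrophages, was at 12.5 (7.23 to 22.0) and 99.9 CPM (85.4 to 110), a relative log2 ratio of 3.08 ± 0.62, and was at 15.7 CPM at day 1 and 57.9 CPM at day 7. Both sets of sublibraries were separate for each of these genes. *Arl5c* (2.63 ± 0.23) and the guanine deaminase gene *Gda* (2.60 ± 0.32) were also among the 10 largest differences.

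*Thbs1* (chr2:118111876-118127133), encoding the TGF-β activator thrombospondin 1, was at 32.7 CPM (22.0 to 47.7) and 322 CPM (291 to 362), a ratio of 9.84 (8.93 to 10.9). The AP-1 subunit gene *Fosl2* was at 32.5 and 253 CPM, *Ptgs2* at 26.9 and 158 CPM, and the transglutaminase gene *Tgm2* at 15.2 and 105 CPM. These 4 genes were at higher levels in neutrophil-like cells, at 1901, 1300, 3490 and 2171 CPM at day 14. The 8 neutrophil markers, all detected, summed to 108 CPM (87.8 to 130) in control and 228 CPM (204 to 248) in day 14 macrophage-like cells. Their part in the result was not tested. The macrophage markers themselves summed to 3523 and 3772 CPM, and proximal tubule markers to 218 and 71.6 CPM. Erythroid and platelet genes summed to 5.83 and 5.81 CPM and podocyte genes to 325 and 220 CPM. Markers of cDC2 summed to 239 CPM (220 to 256) and 422 CPM (385 to 451), and *Nr4a3* was highest in cDC2-like cells, at 1551 CPM at day 14. The part of these in the macrophage-like values was not tested.

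Among genes with lower levels, *Adgrl3*, an adhesion G protein-coupled receptor (chr5:81020138-81825133), was at 539 CPM in control (507 to 567) and 55.6 CPM at day 14 (40.6 to 63.3), a relative log2 ratio of -3.19 ± 0.18. Its thinned share of cells with a count was 30.0% and 4.51%. *Mmp13*, a collagenase, was at 222 (208 to 253) and 33.5 CPM (23.8 to 47.8), and *Fkbp5*, a glucocorticoid-induced co-chaperone (chr17:28399094-28517527, minus strand), at 391 (371 to 409) and 73.1 CPM (66.6 to 82.2). No sublibrary of one condition reached the range of the other. *Ptchd1* (-2.34), the GTPase-activating protein gene *Dlc1* (-1.93), the intermediate filament gene *Nes* (-1.91), *Igf2bp3* (-1.80), *Asb2* (-1.65) and *Igsf9* (-1.61) were also called lower. *Gpx3*, a secreted glutathione peroxidase with its highest level in proximal tubule-like cells, was at 163 and 47.5 CPM (-1.70 ± 0.55).

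**Figure D2:**
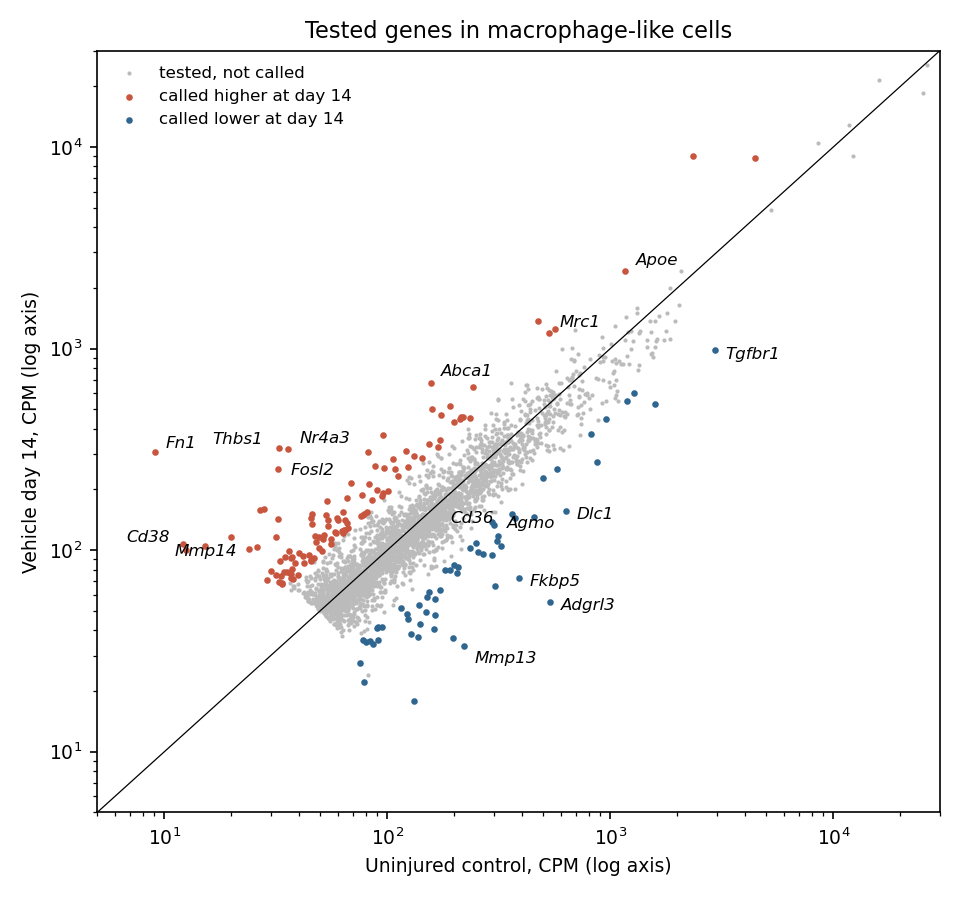
Level of each tested gene in macrophage-like cells in uninjured control (x, CPM, log axis) and at day 14 (y, CPM, log axis), 1 pool each, with the line of equal levels. The 113 genes called higher and 58 called lower are coloured. Among the labelled genes *Fn1* lies farthest above the line and *Adgrl3* farthest below it.

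Genes for resident macrophage identity divided. Of 11 measured members of 15, 3 were called lower and none higher, with a median relative log2 ratio of -0.35. *Tgfbr1*, the type I TGF-β receptor (chr4:47353222-47414931), was at 2942 CPM (2796 to 3079) in control and 978 CPM (901 to 1032) at day 14, a relative log2 ratio of -1.50 ± 0.08. *Agmo*, encoding an alkylglycerol monooxygenase, was at 314 and 117 CPM and *Arhgap22* at 1183 and 549 CPM. *Agmo* was lowest at day 1, at 23.2 CPM, with 97.8 CPM at day 7. The fractalkine receptor gene *Cx3cr1* was at 691 and 881 CPM (0.44), the scavenger receptor gene *Stab1* had 0.71 and the transcription factor gene *Maf* 0.51, none of them called.

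Lipid handling genes were measured for 12 of 18 members, of which 3 were called higher and 1 lower (median 0.33). *Abca1*, the cholesterol efflux transporter (chr4:53030787-53159895, minus strand), was at 157 CPM (142 to 184) and 678 CPM (638 to 726), a ratio of 4.33 (4.14 to 4.54), after 429 and 599 CPM at days 1 and 7. *Apoe*, the lipid carrier that ABCA1 loads, was at 1164 (1060 to 1248) and 2411 CPM (2265 to 2591), with 871 CPM at day 1 and 1754 CPM at day 7. The thinned share of cells with a count was 12.9% and 40.0% for *Abca1* and 56.4% and 74.8% for *Apoe*, against 2.29% and 3.31% and 2.78% and 7.25% in T cell-like cells. The protease cathepsin D gene *Ctsd* was at 45.5 and 144 CPM. The fatty acid scavenger receptor gene *Cd36* was lower, at 364 (317 to 412) and 150 CPM (134 to 187), after 912 CPM at day 1.

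C-type lectin and Fc receptors, which signal through SYK, were measured for 13 of 18 members with a median of 0.08. *Mrc1*, the mannose receptor of alternatively activated macrophages (chr2:14229392-14332057), was called higher, at 531 CPM (501 to 574) and 1196 CPM (1121 to 1232), a ratio of 2.25 (2.19 to 2.31). It was at 640 CPM at day 1 and 867 CPM at day 7, and its thinned share of cells with a count was 35.7% and 61.3%. *Fcgr4*, an activating Fc receptor gene, was called lower (-1.10 ± 0.17; sublibraries 86.8 to 101 CPM in control and 35.8 to 47.4 CPM at day 14). *Syk* itself was at 478 CPM (442 to 527) and 564 CPM (546 to 597), a relative log2 ratio of 0.32 ± 0.10. The kinase gene *Lyn* (-0.11), the phospholipase gene *Plcg2* (-0.38) and the β-glucan receptor gene *Clec7a* (0.81) were not called either.

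Of 13 NF-κB genes, 11 were measured, 10 had a ratio above 0 and 5 were called higher, with a median of 1.00. The called members were the noncanonical subunit genes *Nfkb2* and *Relb* and the feedback inhibitor genes *Nfkbie*, *Tnfaip3* and *Birc3*. *Tnfaip3*, encoding the deubiquitinase A20, was at 106 CPM (84.0 to 124) in control and 284 CPM (259 to 315) at day 14, a relative log2 ratio of 1.51 ± 0.14. *Nfkb2* was at 42.0 (35.7 to 49.0) and 93.9 CPM (82.9 to 102), *Relb* at 58.3 and 124 CPM, *Nfkbie* at 47.9 and 110 CPM, and *Birc3* at 218 and 457 CPM. The control and day 14 sublibraries did not overlap for any of these 5 genes. *Rela* (0.27) and *Tnip1* (-0.13) were near the median of all genes.

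The promoters of 3 of these genes are shown because they move together and hold a NF-κB motif, searched on both strands as GGG, any 3 bases and TTCC, so that overlapping matches count. Sequences run from 250 bases before to 50 after the transcription start in RefSeq (GRCm38.p6), with motif matches in capitals: *Nfkb2* at chr19:46304487-46304786 (plus strand), *Nfkbie* at chr17:45555450-45555749 (plus strand) and *Tnfaip3* at chr10:19015361-19015660 (minus strand).
Nfkb2: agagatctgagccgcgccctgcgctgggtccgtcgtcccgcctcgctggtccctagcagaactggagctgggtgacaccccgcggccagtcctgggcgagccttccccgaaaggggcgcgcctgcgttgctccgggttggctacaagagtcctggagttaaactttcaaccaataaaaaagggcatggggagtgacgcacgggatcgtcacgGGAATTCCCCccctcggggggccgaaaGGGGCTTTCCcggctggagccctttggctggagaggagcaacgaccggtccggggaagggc
Nfkbie: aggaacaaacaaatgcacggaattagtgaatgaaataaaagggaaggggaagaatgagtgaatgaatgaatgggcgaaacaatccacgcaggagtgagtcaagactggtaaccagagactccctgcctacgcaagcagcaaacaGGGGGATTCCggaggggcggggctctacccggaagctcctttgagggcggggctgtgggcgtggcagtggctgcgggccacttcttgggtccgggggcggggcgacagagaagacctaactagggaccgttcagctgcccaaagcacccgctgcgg
Tnfaip3: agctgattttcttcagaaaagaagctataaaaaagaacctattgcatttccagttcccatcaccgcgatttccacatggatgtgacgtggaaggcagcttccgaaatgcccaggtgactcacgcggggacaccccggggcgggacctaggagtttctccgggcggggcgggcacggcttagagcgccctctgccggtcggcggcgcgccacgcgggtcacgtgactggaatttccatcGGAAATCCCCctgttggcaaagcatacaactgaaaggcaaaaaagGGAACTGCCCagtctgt
The *Nfkb2* matches begin 38 and 11 bases before the start, the *Nfkbie* match 106 bases before it, and the *Tnfaip3* matches 12 bases before and 33 bases after it. The table holds 2 further starts of *Nfkb2* and 1 of *Tnfaip3*, each with a match, whereas *Birc3*, also called higher, had none. Conversely, the list members *Nfkbia*, *Rel* and *Tnip1* held a match but were not called. Of the 13 list members 10 had a promoter in the table, and 6 of these held the motif, against 1704 of all 27025 genes in the table (6.31%) and 227 of 2631 genes tested in macrophage-like cells (8.63%). Among genes called higher 16 of 93 with a promoter held it (17.2%), and among those called lower 1 of 45 (2.22%). Besides the NF-κB members, those called higher with a match included *Cxcl2*, *Ccl9*, *Casp4*, *Nfkbid*, *Il4ra* and *Vim*. The list was chosen to hold inhibitor genes that NF-κB drives, so its own share is partly fixed by that choice. Genes called higher include its called members. A gene counted as holding the motif if any of its starts in the table did, and no difference between these shares was tested. A match is a description of the letters in these windows and not a binding site.

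Inflammasome and interleukin 1 genes were measured for 6 of 13 members, and 3 were called higher, with a median of 1.09. *Nlrp3*, the inflammasome sensor, was at 88.1 CPM (77.1 to 103) and 260 CPM (237 to 283), a relative log2 ratio of 1.65 ± 0.17. *Il1r2*, the decoy receptor for interleukin 1, was at 65.6 and 181 CPM and was at 6455 CPM in day 14 neutrophil-like cells. *Il1b* was at 696 CPM (655 to 767) and 1233 CPM (1096 to 1298), a relative log2 ratio of 0.91 that was not past 1. *Il1a* and *Il1rn*, an agonist and the natural antagonist of the same receptor, were too low to be tested. Their CPM ratios were 11.2 (8.51 to 14.9; 55 and 1175 counts) and 10.3 (8.23 to 12.9; 83 and 1631 counts).

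Of 19 chemokines 6 were measured. *Cxcl2*, at 45.9 and 135 CPM, and *Ccl9*, at 46.8 and 91.8 CPM, were called higher, and *Cxcl2* was higher still at day 1, at 655 CPM. The monocyte chemoattractant gene *Ccl2* was too low to be tested, at 10.4 and 48.6 CPM. Among costimulatory ligands, *Cd80* was called higher, at 26.0 CPM (21.5 to 32.9) and 103 CPM (86.9 to 118), whereas its partner *Cd86*, at 698 and 777 CPM (0.24), was not. *Icam1*, the ligand of leukocyte integrins, was at 49.5 and 116 CPM. Genes of major histocompatibility complex class II presentation lay at the median of all genes: of 8 measured none was called, and *Cd74* was at 5276 and 4878 CPM (-0.03). All 6 measured interferon response genes had a ratio below 0 and none was called (median -0.38).

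Matrix, protease and growth factor genes were measured for 10 of 22 members. Besides *Fn1* and *Thbs1*, the membrane-type metalloproteinase gene *Mmp14* was called higher, at 24.0 and 101 CPM, as was *Igf1*, an insulin-like growth factor gene, at 44.6 and 94.4 CPM. The elastase gene *Mmp12* was called lower, at 373 CPM (294 to 447) and 144 CPM (128 to 174), and *Tgfb1*, at 199 and 203 CPM, was not called. *Vegfa*, too low to be tested, had a CPM ratio of 11.9 (9.27 to 15.5).

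**Figure D3:**
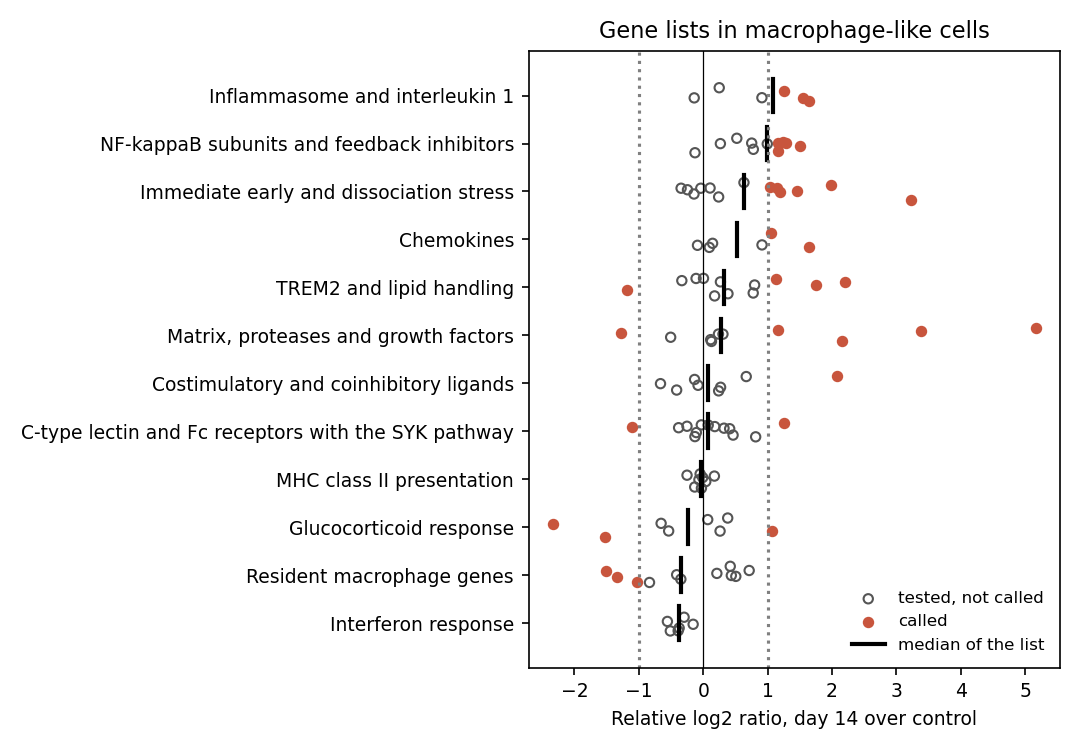
Relative log2 ratio, day 14 over control, of the measured members of each gene list in macrophage-like cells, 1 point per gene, with the list medians. Dotted lines mark ratios of 1 and -1, and 0 is the median of all 3285 tested genes; NF-κB (median 1.00) and inflammasome genes (1.09) lie highest.

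Glucocorticoid response genes were measured for 8 of 14 members. *Fkbp5* and the transcription factor gene *Zbtb16*, at 323 and 105 CPM, were called lower and the cell cycle inhibitor gene *Cdkn1a* higher, at 36.8 and 73.0 CPM. Immediate early genes, which respond within minutes and also to tissue dissociation, were measured for 13 of 18 members. Of these, 6 were called higher and none lower (median 0.63), with *Fosb* at 82.0 and 307 CPM, *Egr1* at 82.4 and 213 CPM and *Fos* at 200 and 431 CPM. The heat shock members *Hspa1a* (-0.14), *Hspa1b* (-0.24) and *Dnajb1* (-0.34) were not called. The part of dissociation in these values was not tested. The proliferation marker *Mki67* was at 104 and 113 CPM (0.21).

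**Figure D4:**
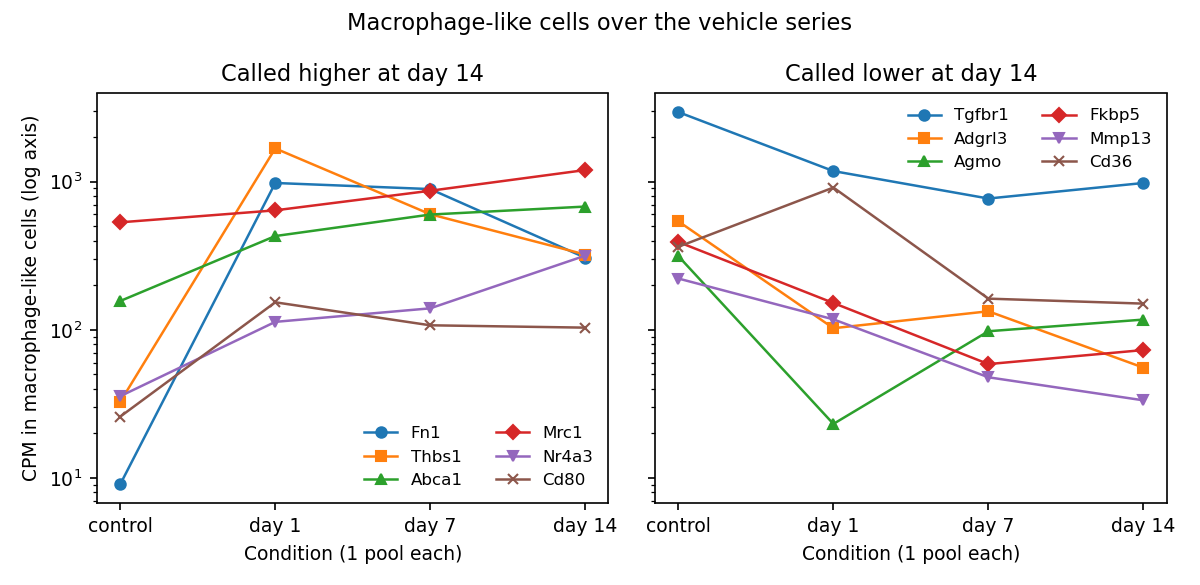
Levels (CPM, log axis) of named genes in macrophage-like cells in control and at days 1, 7 and 14 with vehicle, 1 pool each. *Nr4a3*, *Mrc1* and *Abca1* were highest at day 14, whereas *Fn1* was highest at day 1 (979 CPM) and at 307 CPM by day 14.

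In cDC2-like cells (540 and 1609 cells), 104 of 3121 tested genes (3.33%) were called higher and 46 (1.47%) lower, or 123 and 32 with TMM factors in place of the median. *Dcstamp*, encoding a fusion protein of dendritic cells and osteoclasts, was at 19.0 CPM in control (0 to 38.4) and 223 CPM at day 14 (175 to 266), with 36.0 CPM at day 1 and 201 CPM at day 7. *Cd274*, the gene for the inhibitory ligand PD-L1, was at 13.3 CPM (4.91 to 30.6) and 93.8 CPM (68.3 to 133). The sublibraries of the conditions did not overlap for either gene. *Fn1* (3.20), *Gda* (2.95) and the serotonin receptor gene *Htr7* (2.74) completed the 5 largest. The prostaglandin-degrading enzyme gene *Hpgd* was lowest, at 231 CPM (161 to 276) and 20.4 CPM (15.7 to 30.4), followed by *Adgrl3* (-2.91), *Zbtb16* (-2.62), *Celf4* (-2.48) and *Fkbp5* (-1.83).

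Several receptor genes of cDC2-like cells differed. *Cd40*, the receptor for T cell help, was at 24.8 CPM (14.0 to 49.8) and 112 CPM (76.4 to 160), *Cd80* at 196 and 404 CPM, *Mrc1* at 220 and 488 CPM and *Clec7a* at 170 and 454 CPM. The inhibitory receptor gene *Havcr2* was lower, at 276 and 88.3 CPM, as was the chemokine receptor gene *Cxcr4*, at 126 and 37.1 CPM. All 13 NF-κB genes were measured with ratios above 0 (median 0.76), and *Nfkb1*, at 751 and 1477 CPM, and *Relb*, at 99.2 and 196 CPM, were called. Of 8 measured glucocorticoid response genes 4 were called lower and none higher (median -0.99): *Fkbp5*, *Zbtb16*, *Tsc22d3*, at 97.0 and 25.9 CPM, and *Sgk1*, at 75.3 and 28.9 CPM. None of 10 measured class II presentation genes was called (median 0.02). Lipoprotein lipase, encoded by *Lpl*, was at 35.4 and 191 CPM, and *Mmp12*, lower in macrophage-like cells, was higher here, at 62.5 and 176 CPM. Neutrophil markers summed to 48.3 and 85.3 CPM and macrophage markers to 259 and 283 CPM in these cells.

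In cDC1-like cells (461 and 776 cells), 53 of 3203 tested genes (1.65%) were called higher and 10 (0.312%) lower. The lower count was 55 with cells thinned to 1000 counts and 10 to 17 with 1 sublibrary left out. The highest ratios were in *Dusp5* (2.40), *Fosl2* (2.31), the shared cytokine receptor subunit gene *Csf2rb* (2.04), *Csrnp1* (2.03) and *Mxd1* (1.92), all with levels in day 14 neutrophil-like cells above those in cDC1-like cells, for example 1210 against 320 CPM for *Csf2rb*. Neutrophil markers summed to 40.5 CPM (17.2 to 59.6) and 109 CPM (66.6 to 159) in cDC1-like cells, and their part in the result was not tested. *Dusp5* was not called with cells of 2 lineages left out (2.54). The lowest were in the calcium channel subunit gene *Cacnb2*, at 154 and 32.1 CPM, and in *Fkbp5* (-1.55), *Dlc1* (-1.46), *Scarna2* (-1.30) and *Lifr* (-1.25). In pDC-like cells (148 and 151 cells), 21 of 3324 (0.632%) were called higher and 8 (0.241%) lower. Thinning gave 7 and 3, and leaving out 1 sublibrary 10 to 18 lower. *Nr4a3* was at 55.5 and 336 CPM, the proapoptotic gene *Bcl2l11* at 46.3 and 197 CPM, *Crem* at 45.0 and 171 CPM, *Atp2b4* at 97.8 and 363 CPM and *Fosb* at 52.9 and 191 CPM. Without cells of 2 lineages 5 of 11 named genes of this class were no longer called, *Fosb* (1.71) among them. Neutrophil markers summed to 37.0 CPM (0 to 102) and 133 CPM (28.8 to 281) in pDC-like cells, and proximal tubule markers to 159 and 42.3 CPM. Their part in the result was not tested. Nonclassical monocyte-like cells (145 and 124 cells) had 13 of 2464 genes (0.528%) called higher and 4 (0.162%) lower (8 and 5 with TMM factors, 3 and 2 when at least 3 markers and 2 more than any other class were needed, and 4 and 1 with thinning), led by the decoy receptor gene *Il1r2*, at 34.4 CPM (0 to 56.1) and 325 CPM (49.4 to 2211; 94 counts), and *Gpx3*, at 157 and 38.1 CPM. Day 14 *Il1r2* thus overlapped the control range and differed widely between sublibraries, and neutrophil markers in this class summed to 211 CPM (58.8 to 486) and 228 CPM (87.7 to 654). *Gpx3* was not called without cells of 2 lineages (-1.74).

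In T cell-like cells (625 and 1252 cells), 47 of 3259 tested genes (1.44%) were called higher and 35 (1.07%) lower. The 35 became 44, and the 47 became 31, without subtracting the median of the tested genes. *Kcnq5*, a potassium channel gene (chr1:21398403-21961942, minus strand), was at 1398 CPM (964 to 1633) in control and 340 CPM (306 to 384) at day 14, a relative log2 ratio of -1.97 ± 0.27. *Satb1*, a chromatin organiser of naive and developing T cells, was at 665 CPM (559 to 927) and 184 CPM (138 to 251). Both were higher at day 1, at 904 and 914 CPM, than at day 14. At day 7 *Kcnq5* was at 320 CPM, below its day 14 level, and *Satb1* at 546 CPM, above it. *Il12rb2*, an interleukin 12 receptor subunit gene, was at 179 and 46.2 CPM, *Zbtb16*, the transcription factor gene of innate-like T cells, at 303 and 80.9 CPM, and *Atp8a2* at 130 and 34.1 CPM. *Nr4a3*, induced by T cell receptor signalling, was higher, at 162 CPM (90.9 to 282) and 481 CPM (365 to 603), as were *Stx11* (1.66), *Odc1* (1.61) and *Ttn* (2.53). *Il1r2* was at 22.2 and 123 CPM, with neutrophil markers at 28.4 to 73.8 CPM over the control and 67.1 to 139 CPM over the day 14 sublibraries of these cells.

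Of 24 T cell state genes 16 were measured, 2 called higher and 1 lower (median 0.34). The coreceptor gene *Cd4* was at 91.1 CPM (69.2 to 163) and 174 CPM (155 to 205), with overlapping sublibraries. *Ikzf2*, encoding Helios, was at 392 and 777 CPM, and its ratio of 1.06 was 0.99 when cells with markers of 2 lineages were left out. *Lef1*, a transcription factor gene of naive T cells, was called lower, at 532 CPM (383 to 733) and 233 CPM (152 to 363). *Tox* (0.90), *Ctla4* (0.98), *Tcf7* (-0.44), *Tbx21* (-0.76) and *Cd8a* (0.40) were not called. *Foxp3*, the regulator of regulatory T cells, and *Pdcd1*, encoding PD-1, were too low to be tested, with CPM ratios of 5.50 (3.23 to 10.1; 15 and 147 counts) and 3.02 (2.16 to 4.30; 42 and 226 counts). All 10 measured NF-κB genes had ratios above 0 (median 0.81) and *Nfkb1* (1.11), *Relb* (1.33) and *Nfkbia* (1.06; 0.97 and not called without cells of 2 lineages) were called.

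In B cell-like cells (444 in each condition), 25 of 3346 tested genes (0.747%) were called higher and 7 (0.209%) lower. The 25 became 6 with cells thinned to 1000 counts and 10 with cells of 2 lineages left out. It was 16 when at least 3 markers and 2 more than any other class were needed. Leaving out 1 sublibrary gave 6 to 11 lower. The 5 highest, *Il1r2* (2.80), *Fosl2* (2.66), *Thbs1* (2.59), *Csf2rb* (2.38) and *Mxd1* (2.17), were all genes with higher levels in neutrophil-like cells, and neutrophil markers summed to 57.7 and 177 CPM in B cell-like cells. With cells carrying markers of 2 lineages left out, *Il1r2*, *Fosl2*, *Thbs1* and *Csf2rb* were no longer called, at ratios of 1.53, 1.34, 1.51 and 2.39 without a shared sign in every sublibrary, and in all 8 of 13 named genes lost their call. *Gpx3*, another of these (-1.36), was at 166 and 47.2 CPM, with proximal tubule markers at 173 and 61.7 CPM, and *Rapgef4*, a cAMP-activated exchange factor gene, at 253 and 102 CPM.

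Endothelial cell-like cells (2312 and 393 cells) had 60 of 3530 tested genes (1.7%) called higher and 55 (1.56%) lower, or 48 and 73 with TMM factors. *Cyp26b1*, encoding a retinoic acid-degrading enzyme, was at 229 CPM (191 to 280) in control and 24.6 CPM (0 to 49.2) at day 14, with 184 CPM at day 1 and 81.1 CPM at day 7. *Cd36*, the fatty acid transporter gene of capillary endothelium, was at 290 CPM (255 to 326) and 60.2 CPM (25.3 to 119), and *Zbtb16* at 418 CPM (365 to 461) and 62.6 CPM (20.8 to 84.3). The conditions were separate in all sublibraries for these 3 genes. Of 14 measured endothelial state genes 1 was called lower, *Ehd3* of glomerular endothelium, at 282 and 105 CPM, and it was not called when cells with markers of 2 lineages were left out (-1.20). The fenestral diaphragm gene *Plvap*, at 898 and 574 CPM (-0.65), and *Igfbp5*, at 2998 and 1767 CPM (-0.76), were not called. *Selp*, encoding P-selectin, was too low to be tested, at 17 counts (2.06 CPM) and 96 counts (76.1 CPM, sublibraries 0 to 471).

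Of the endothelial genes with higher levels, *Nr4a3* was at 11.9 CPM (5.51 to 21.5) and 124 CPM (21.1 to 311), with overlapping sublibraries, *Adamtsl1* at 15.7 CPM (8.16 to 33.3) and 135 CPM (42.7 to 213), and *Abca1* at 119 and 356 CPM. *Il1r2* (2.63), *Vim* (2.42) and *Il1b* (2.26) completed the 5 largest. All 12 measured immediate early and dissociation stress genes had ratios above 0 (median 1.23), and 5 were called higher. The part of dissociation was not tested. Macrophage markers summed to 424 and 533 CPM and neutrophil markers to 46.1 and 143 CPM in this class, and 10.4% and 15.0% of its cells carried markers of 2 lineages. Without those cells 13 of 26 named genes were no longer called, among them *Nr4a3* (3.31), *Il1r2* (2.47) and *Vim* (2.35), whose ratios stayed about as large, and *Apoe*, whose ratio was then 0.68. Of 9 measured interferon genes 1 was called lower, *Ifi44*, at 331 and 149 CPM.

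Proximal tubule-like cells (1076 and 128 cells) had 100 of 3414 tested genes (2.93%) called higher and 289 (8.47%) lower. The median log2 ratio of the tested genes was 0.29 in this class, and without subtracting it 203 were called higher and 175 lower. *Havcr1*, encoding the tubular injury marker KIM-1 (chr11:46735080-46779578), had 4 counts (0.987 CPM) in control and 92 counts (174 CPM, sublibraries 0 to 563) at day 14, a CPM ratio of 176 (66.6 to 661). Its level was 256 CPM at day 1 and 9.85 CPM at day 7. *Vcam1*, an adhesion molecule gene of failed-repair tubules, had 27 and 116 counts, a ratio of 32.9 (21.5 to 52.1), and was at 9.62 and 13.8 CPM at days 1 and 7. *Spp1*, encoding osteopontin, was at 252 CPM (163 to 520) and 2327 CPM (374 to 7691), with overlapping sublibraries. Of 12 tubule injury genes 6 passed the limit on levels, *Havcr1* and *Vcam1* only through day 14, and *Havcr1*, *Vcam1* and *Spp1* were called higher. *Sox9* had 2 and 21 counts and *Vim* 46 and 42 counts, at 11.3 and 79.5 CPM. *Plat* (5.21), *Col12a1* (6.83) and *C3* (4.16) were also among the 5 largest, and *C3* (then 4.27) and *Col12a1* (then 1.99), whose sublibraries spanned 0 to 1063 CPM at day 14, were not called when cells with markers of 2 lineages were left out.

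All 12 tubule homeostasis genes were measured with ratios below 0 in proximal tubule-like cells (median -2.08), and 8 were called lower. *Hnf4a*, the transcription factor gene of proximal tubule identity, was at 536 CPM (474 to 597) and 204 CPM (92.2 to 383). *Pck1* was at 819 CPM (694 to 981) and 168 CPM (41.9 to 440), *Kap* at 1079 CPM (845 to 1646) and 161 CPM (0 to 380), and the inositol oxygenase gene *Miox* at 492 and 96.5 CPM. The sublibraries of the conditions did not overlap for the 3 genes with ranges. The lipid oxidation regulators *Ppara* (-0.67) and *Ppargc1a* (-0.82) were not called. The 5 genes with the lowest ratios outside the list were *Inmt* (-3.84), *Uqcrb* (-3.42), the organic anion transporter gene *Slco1a1* (-3.28), *Acsm3* (-3.19) and *Igfbp5* (-3.13). With these, all 12 measured immediate early and dissociation stress genes had ratios above 0 (median 1.98), and 7 were called higher. Of 6 measured NF-κB genes 4 were called higher. The part of dissociation in these values was not tested. Counts at day 14 were few in this class (528636), and 9 of the genes called higher had no count in at least 1 day 14 sublibrary, *Col12a1* in 6, *Plat* in 3, *Havcr1* in 2 and *Vcam1* in 1. There their sign can come from the 0.5 counts added over a smaller total, so agreement of the 8 sublibraries says nothing for these genes. Macrophage markers summed to 261 and 533 CPM and neutrophil markers to 59.9 and 201 CPM in its cells. The share of its cells with markers of 2 lineages was 9.57% and 18.8%, and the part of these in the result was not tested beyond leaving them out, after which 34 of 41 named genes were still called.

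Neutrophil-like cells are given as values only, since control held 63 cells and 88835 counts. *Il1a* was at 56.3 CPM (5 counts) in control and 562 CPM (941 counts) at day 14, a ratio of 9.99 (4.27 to 30.8), with 162 CPM at day 1 and 553 CPM at day 7. *Cxcl2* had a ratio of 3.53 (2.60 to 4.94), *Nfkb1* 3.45 (2.44 to 5.06), *Il1rn* 3.16 (2.08 to 5.05), *Tnfaip3* 3.13 (2.25 to 4.48) and *Nlrp3* 2.07 (1.59 to 2.74). *Il1b*, the most abundant of them at 8398 and 11740 CPM, had a ratio of 1.40 (1.30 to 1.51). Granule genes of younger neutrophils were low: *Lcn2* was at 90.1 and 28.1 CPM (8 and 47 counts) and *Mmp8* at 101 and 30.5 CPM. The interferon response genes *Rsad2*, with a ratio of 0.147 (0.0915 to 0.242), and *Oasl2*, with 0.394 (0.283 to 0.563), were lower at day 14. For *Rsad2*, with 25 control counts, sublibraries overlapped, at 0 to 750 CPM in control and 17.8 to 72.7 CPM at day 14. *Ikbke* had no count in control and 408 at day 14, with an exact lower limit of 5.85 for the CPM ratio. Control neutrophil-like cells also held more proximal tubule marker counts (462 against 54.4 CPM) and fewer macrophage (214 against 525 CPM) and B cell marker counts (67.5 against 461 CPM, with 1 day 14 sublibrary at 2199 CPM), while their own markers summed to 9670 and 6250 CPM, and their part in these values was not tested.

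Some genes differed in the same direction in most classes. *Nr4a3* was called higher in all 8 classes compared, macrophage-, cDC2-, cDC1-, pDC-, T cell-, B cell-, endothelial cell- and proximal tubule-like, with relative log2 ratios from 1.32 in cDC2-like to 3.39 in endothelial cell-like cells. Its day 14 level was highest in cDC2-like (1551 CPM) and neutrophil-like cells (1418 CPM), and the part of neutrophil RNA in the other classes was not tested. With cells of 2 lineages left out it was not called in endothelial cell-like (3.31) and proximal tubule-like cells (2.33). *Scarna2*, a small Cajal body RNA gene, was called lower in 7 of the 8, from -1.21 to -1.68, with -0.27 in proximal tubule-like cells. In nonclassical monocyte-like cells, with the fewest counts of the tested classes, neither was called (*Nr4a3* 1.77 in 7 of 8 sublibraries, *Scarna2* -0.62). *Fkbp5* was called lower in macrophage-, cDC2-, cDC1- and proximal tubule-like cells (-2.33, -1.83, -1.55 and -1.82) and had -0.39 in T cell-like and -0.75 in endothelial cell-like cells. *Zbtb16* was called lower in macrophage-, cDC2-, T cell- and endothelial cell-like cells (-1.53, -2.62, -1.83 and -2.74), so its lower level was not particular to T cell-like cells. It had -0.40 in proximal tubule-like cells and was not tested in the others. *Gpx3* had ratios from -1.07 to -2.49 in the 8 classes and was called lower in 5 of them, and proximal tubule markers summed to lower CPM at day 14 in each class. The classes of a condition share a pool, a sort and barcoding wells, so agreement between classes is not independent.

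**Figure D5:**
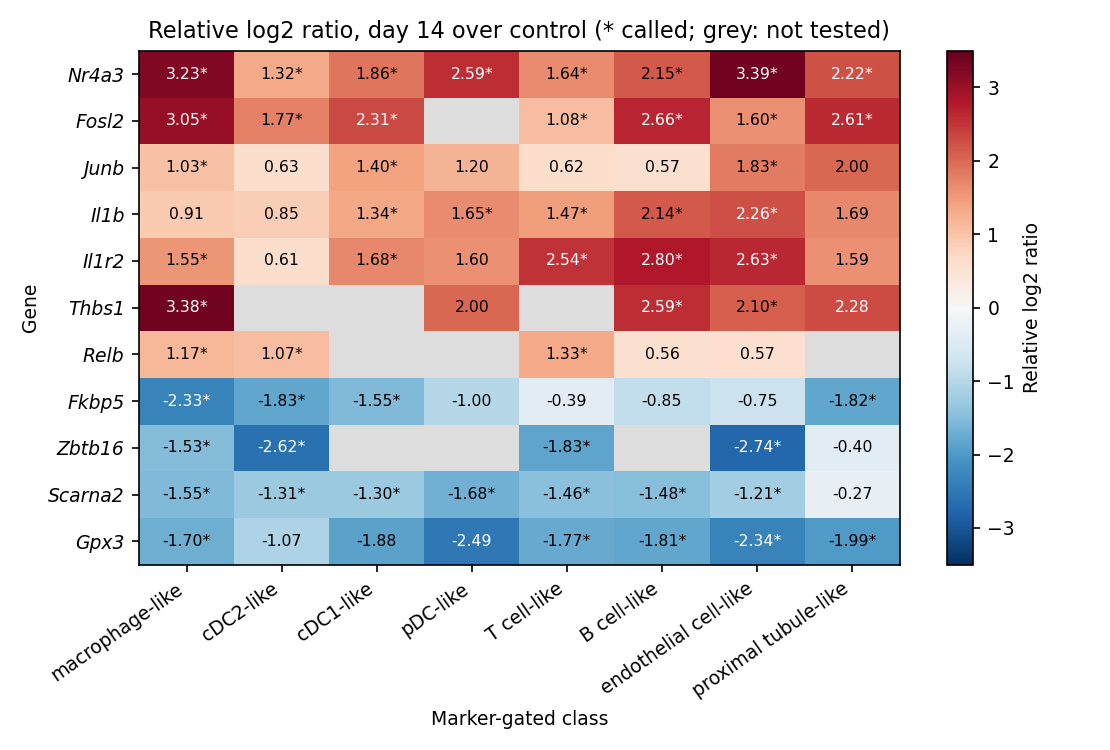
Relative log2 ratio, day 14 over control, of genes (rows) in 8 classes (columns); blank cells were not tested there. *Nr4a3* ranges from 1.32 to 3.39 and *Fkbp5* from -0.39 to -2.33.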

How the data were processed

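Kidney suspensions were profiled by combinatorial-barcoding single-cell RNA-seq. The authors deposited raw counts per gene and cell (build mm10, from the submitters' processing notes) with a table giving the condition of each cell. The submitted samples are mixtures of all conditions, so conditions were taken from that table. Annotation release and counting strand are not given in the sources used here.

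Cells were kept by the study's limits on genes, counts and mitochondrial share. Its limit of 1.5% ribosomal counts was an alternative. Each cell went to the class with most of its 8 markers detected (at least 2, and at least 1 more than any other class). Doublets were not called. Cells with at least 3 markers of each of 2 lineages were left out as an alternative. Counts were summed per class, condition and sublibrary for classes with at least 100 cells in both conditions, with 0.5 counts added per sublibrary for ratios. CPM intervals were exact Poisson, shares exact Clopper-Pearson with Katz intervals for their log2 ratios, and CPM ratios exact conditional.

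Named genes were list members in the classes each list concerns, and the 10 (whole suspension, macrophage-like) or 5 (other classes) genes called with the largest ratio in each direction, leaving out class markers, mitochondrial and ribosomal protein genes, predicted genes and identifiers without a symbol. Others were chosen after their values were seen. Some genes that the rule names are not reported here. Members and lists were chosen with earlier results of these data known. Scripts were tested on simulated counts. Python 3.11.15, numpy 2.4.6, scipy 1.17.1, pandas 2.3.3, matplotlib 3.10.9, R 4.3.3 and, for TMM factors only, edgeR 4.0.16 were used.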

Additional observations from a re-analysis of the deposited data

Results flagged for a closer look

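Values of the 8 technical sublibraries were looked at in 60 groups, and in 7 of them the highest or lowest sublibrary stood apart from the others by Dixon's criterion. Chance alone would pick out about 1 group in 20. Among shares, sublibrary 4 at day 14 held 3.27% B cell-like cells, where the others held 2.23% to 2.66%. Sublibrary 5 at day 14 held 1.04% proximal tubule-like cells, where the others held 0.609% to 0.767%. In macrophage-like cells at day 14, sublibrary 7 was lowest for *Nr4a3*, at 249 CPM against 311 to 345 CPM, and for *Fosl2*, at 197 CPM against 243 to 282 CPM, while sublibrary 5 was lowest for *Adgrl3*, at 40.6 CPM against 52.9 to 63.3 CPM. In control macrophage-like cells, *Mmp13* was at 253 CPM in sublibrary 3 against 208 to 226 CPM, and *Ptchd1* was at 224 CPM in sublibrary 2 against 183 to 200 CPM. The B cell-like share of day 14 sublibrary 4 lay inside the control range of 3.17% to 4.48%. The proximal tubule-like share and the 5 gene values lay outside the range of the other condition.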

How the results depend on the processing

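No paired analysis was possible because the conditions share no replicate numbers and each is 1 pool. With 1 pool per condition the spread between mice is unknown, and depth limits the small classes (63 control neutrophil-like and 128 day 14 proximal tubule-like cells).

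Of 250 share ratios recomputed under alternatives 217 stayed within the counting interval of the reported ratio, and 280 of 340 counts of called genes stayed within 1.5 times. Both totals include recomputations with a single sublibrary left out in turn. These reuse most of the same cells and can hardly differ, so the totals overstate how well results held under the other alternatives. For 52 named genes in macrophage-like cells 12 alternatives each were used, most of which left out a single sublibrary in turn. Thinned cells, the limit of 500 genes, ratios without subtracting the median and other limits on gene levels were not among them. Of these 624 recomputed ratios 623 kept direction and call and none reversed, which the choice of alternatives partly fixes. The exception was *Gpx3*, at -0.99 with cells of 2 lineages left out. The cause of the shifts below was not tested.

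Share log2 ratios, with more than 500 genes required, were 0.48 for macrophage-like cells. With 3 markers and 2 more than any other class they were 0.44 for macrophage-, 0.81 for cDC2-, -1.58 for ILC2-like cells and 0.43 for leukocytes together. Thinned to 1000 counts per cell, which left out 263 control and 2674 day 14 cells, they were 0.65 for macrophage-, 0.96 for classical monocyte-, -0.44 for nonclassical monocyte-, 3.17 for neutrophil-, 1.24 for cDC2-, -0.10 for cDC1-, -2.34 for distal tubule-like cells and 0.57 for leukocytes. Over leukocyte classes alone they were -0.088 for macrophage-, -0.096 for T cell-, -0.030 for NK cell-, -0.16 for classical monocyte- and -0.35 for cDC1-like cells, all of which changed sign, and -1.32 for nonclassical monocyte-, 3.36 for neutrophil-, 0.48 for cDC2-, -1.07 for pDC- and -1.10 for B cell-like cells. With less than 1.5% ribosomal protein counts they were 1.16 for cDC2-, 0.36 for cDC1-like cells and 0.51 for leukocytes. Without a mitochondrial limit, chosen after seeing the data, they were 0.57 for macrophage-, 1.16 for cDC2-, 0.34 for cDC1-, 0.57 for T cell-, -3.01 for endothelial cell-, -2.50 for distal tubule-like cells and 0.66 for leukocytes.

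Counts of genes called higher and lower rose with a mean of at least 20 CPM, to 269 and 529 in the whole suspension, 227 and 95 in macrophage-, 175 and 78 in cDC2-, 98 and 29 in cDC1-, 87 and 58 in T cell- and 134 and 96 in endothelial cell-like cells, with 14 lower in B cell- and 172 higher in proximal tubule-like cells. With only 10 counts required they were 922 and 2243 in the whole suspension, 598 and 389 in macrophage-, 41 and 13 in nonclassical monocyte-, 286 and 186 in cDC2-, 144 and 119 in cDC1-, 55 and 25 in pDC-, 135 and 138 in T cell-, 71 and 26 in B cell- and 492 and 143 in endothelial cell-like cells, and 727 higher in proximal tubule-like cells. The stricter gate gave 3 and 2 in nonclassical monocyte-like cells and 13 higher in pDC- and 16 in B cell-like cells. Thinning gave 4 and 1 in nonclassical monocyte-, 7 and 3 in pDC- and 61 and 178 in proximal tubule-like cells, 55 lower in cDC1- and 6 higher in B cell-like cells. TMM factors gave 8 higher in nonclassical monocyte-like cells, the ribosomal limit 16 lower in cDC1-like cells, and no median 31 higher in T cell- and 203 and 175 in proximal tubule-like cells. With cells of 2 lineages left out 10 were higher in B cell- and 36 in endothelial cell-like cells. Leaving out 1 sublibrary at a time gave 110 to 118 higher and 56 to 59 lower in macrophage-like cells, and 4 to 7 lower in nonclassical monocyte-, 10 to 17 in cDC1-, 10 to 18 in pDC- and 6 to 11 in B cell-like cells.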

Other observations

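Cells with too few markers for any class (279 in control and 1543 at day 14) differed in the genes they held. *Acod1* had 2 counts in control and 506 at day 14, *Il1rn* 4 and 452, and *Il1a* 3 and 294. *Cxcl2* was at 19.8 and 374 CPM. The tubule genes *Miox*, at 160 and 2.75 CPM, and *Pck1*, at 172 and 3.29 CPM, were lower at day 14. Neutrophil markers summed to 117 CPM (56.5 to 178) in control and 456 CPM (361 to 539) at day 14 in these cells, and proximal tubule markers to 402 and 57.1 CPM. *Acod1* and *Cxcl2* were at 1699 and 1631 CPM in day 14 neutrophil-like cells, and the part of either marker shift was not tested.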
